A study of Sus scrofa with 12 samples.

Results

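NMU is the gene of neuromedin U, and 1 probe of the array carried this symbol. It was taken by its symbol in the platform's gene table, and it is 1 of 11908 named genes and 1 of 43769 probes measured on all 12 arrays. NMU was chosen by its ratios between FE and SE embryos in these samples and by how they varied, so these ratios are described here with no test.

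Neuromedin U is a short amidated peptide that is cut from a larger secreted precursor. It was isolated from pig spinal cord and named for the contraction of rat uterus that it causes. It acts through a pair of G protein-coupled receptors, NMUR1 and NMUR2, which it shares with the related peptide neuromedin S. In rodents the system is known for its part in feeding, gut movement, stress responses and innate immunity.

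The samples were pools of Day 9 embryos from primiparous sows that came into heat during lactation. FE sows were inseminated at that heat, and SE (skip-a-heat) sows at the one that followed, with 3 sows in each group. According to the series title, the sows were under intermittent suckling. RNA came from pools of 5 male or 5 female embryos of single sows, which were sexed by PCR, and was amplified before labelling.

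On each of 12 arrays an FE and an SE pool of 1 sex were compared. The arrays form 6 sets, 3 male and 3 female, each hybridised once as a first array and once as a dye swap, on the same slide. The array values are log ratios of the 2 channels, read as log2, and their SD over the probes of an array ran between 0.333 and 0.472. Each sow gave a male and a female pool, so the 6 sets are not fully independent. The number of arrays limits the precision, and levels of single channels were not analysed here, so a labelled cell type could not be checked against the level of its markers.

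The labels give FE the same dye on both arrays of a set, although the second is described as a dye swap. As deposited, the 2 arrays of a set had opposite signs over the probes, with Pearson's r between -0.149 and -0.766. The sign of each dye-swap array was therefore turned, and averaging it with the first array gave the set ratio used below. A negative ratio has the sign of the first arrays. Which channel was the numerator is not given in the sources used here, so no statement is made on whether FE or SE embryos had more NMU RNA.

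The NMU probe had a ratio well away from 0 on every array, and always to the same side. In male embryos the first arrays read -2.02, -0.82 and -1.82 in sets 1, 2 and 3, and the swap arrays as deposited read 1.83, 1.03 and 2.13. In female embryos the first arrays read -4.78, -2.72 and -0.89, and the swap arrays 4.51, 2.49 and 0.75. All 6 first arrays were thus below 0 and all 6 swap arrays above it, and after turning 12 of 12 values were negative.

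**Figure D1:**
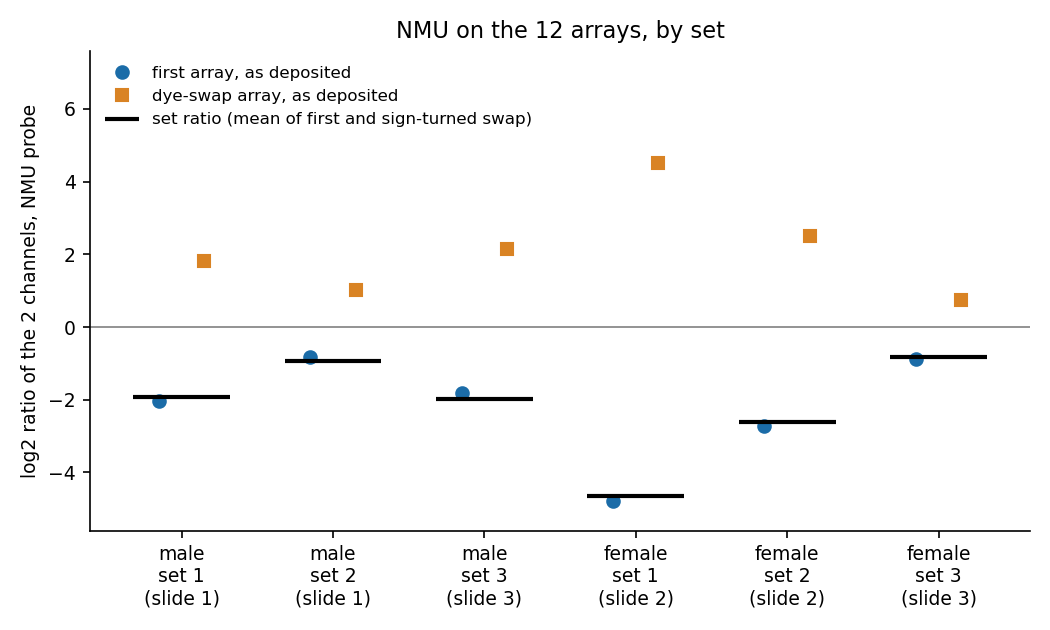
Log2 ratio of the NMU probe (vertical axis) in the 3 male and 3 female sets (horizontal axis). Circles are first arrays and squares are swap arrays, both as deposited, and bars are set ratios, which run from -4.65 in female set 1 to -0.82 in female set 3.

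The set ratios of NMU were -1.93, -0.92 and -1.98 in male sets 1, 2 and 3, and -4.65, -2.61 and -0.82 in female sets 1, 2 and 3. As a size without direction, the difference between FE and SE pools was 25.1-fold in female set 1 and 1.77-fold in female set 3. The mean over the 6 sets was -2.15 ± 1.40 (log2, SD, n = 6 sets), a 4.44-fold difference. NMU was negative in 6 of 6 sets, as were 1.77% of all probes, a figure from which nothing is read because these ratios chose the gene. In pooled embryos, a difference in the share of cells that express NMU and one in NMU RNA per cell cannot be told apart.

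The spread between sets was far wider than that between the 2 arrays of a set. The first and the turned swap array of a set differed by 0.14 to 0.31, and the SD of a single array from these pairs was 0.16, against the SD of 1.40 between sets. Over the median probe the 2 arrays of a set differed by 0.20 to 0.28. Across the 6 sets, first and turned swap arrays of NMU had a Pearson's r of 0.99, given as a description over pairs that share their RNA.

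The sexes overlapped. The male ratios averaged -1.61 ± 0.60 and the female ratios -2.69 ± 1.92 (SD, n = 3 sets each), and the male values lay inside the range of the female ones. The difference, male minus female, was 1.08, and it rested on female set 1: without that set it was 0.10, the female mean was -1.71 and the mean of both sexes was -1.66. Without female set 3 the difference was 2.02. At the same set number, male minus female was 2.72 in set 1, 1.68 in set 2 and -1.16 in set 3. The labels do not tie set numbers to sows, so these are not known to be differences within a sow.

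The sets also lay on different slides. NMU averaged -1.43 on slide 1, which held male sets 1 and 2, -3.63 on slide 2, which held female sets 1 and 2, and -1.40 on slide 3, which held set 3 of both sexes. Slides 1 and 2 each held 1 sex, so that slide and sex cannot be told apart there, and the part of the slide in the spread was not tested.

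Set against the rest of the array, NMU had the largest mean ratio in size of the 18110 named probes, and the most negative of all probes. The probes with a larger size were 4 without a symbol, all positive, at 2.26 to 2.64, and their Pearson's r with NMU over the sets lay between -0.40 and 0.09. The named genes that followed were IFNG, the conceptus interferon gamma, at -1.74 ± 1.76, and LOC100519082 at -1.45 ± 0.86. Set by set, NMU ranked 1st in size of all probes in female set 1, and at places 17 and 19 in male set 1 and female set 2. It ranked at place 177 in male set 3, 691 in male set 2 and 2821 in female set 3. Its SD between sets was the 60th highest, against a median of 0.19 over all probes.

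**Figure D2:**
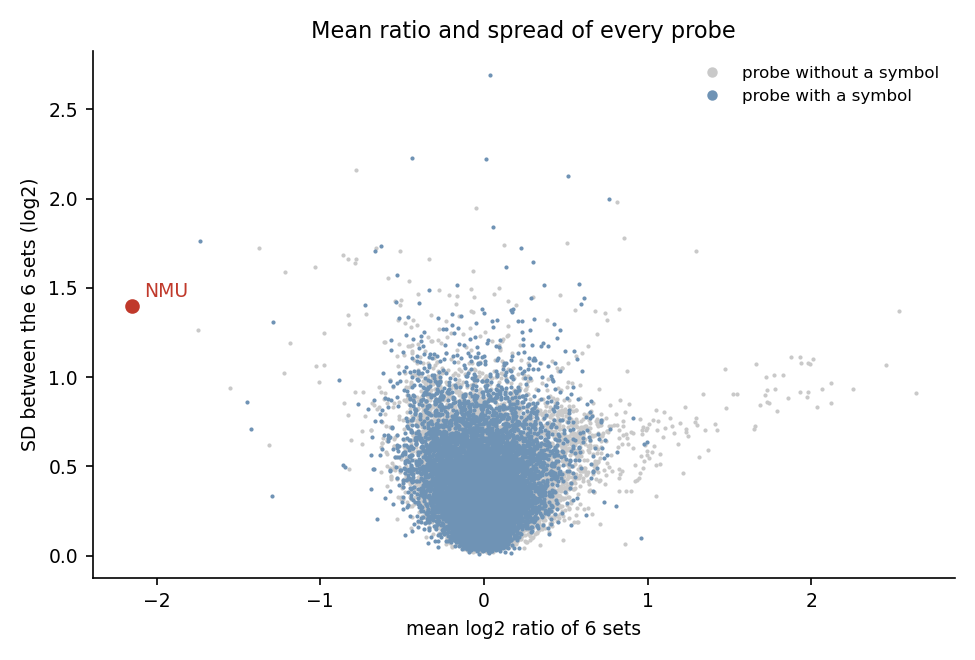
Mean log2 ratio of the 6 sets (horizontal axis) and SD between sets (vertical axis) for every probe, with named probes in blue, unnamed probes in grey and NMU in red. NMU stands at -2.15 and 1.40, left of every other probe.

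Genes that make, receive or accompany neuromedin U were put on 5 lists by their function, with earlier results of these data known, and were tested with limma over all 43769 probes. Of 174 genes on the lists 125 were measured, by 189 probes. None of the 189 passed (limma adjusted p of 0.575 or more), where 0.00457% of all probes did. An unadjusted p under 0.05 was found for 9 of them, or 4.76%, against 5.92% of all probes. Their median ratio was 0.0022, with 92 of 189 negative, and that of all probes was -0.0044.

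The receptors of neuromedin U had ratios near 0. NMUR1, known in rodents for its expression in gut and immune cells, had -0.03, 0.08 and -0.10 in male sets 1 to 3 and -0.12, 0.08 and -0.28 in female sets 1 to 3. Its mean was -0.06 ± 0.14 (SD, n = 6 sets; 95% confidence interval -0.22 to 0.10; limma adjusted p = 0.961). NMUR2, known in rodents as the receptor of the brain, had 0.16, 0.01 and -0.10 in male sets 1 to 3 and -0.20, -0.03 and -0.06 in female sets 1 to 3, with a mean of -0.04 ± 0.12 (95% confidence interval -0.18 to 0.11; limma adjusted p = 0.977). Neither receptor kept 1 sign over the sets, and both intervals lay within a 2-fold difference. These intervals take the 6 sets as independent, although sets share sows. No filter on dim probes could be run on ratios, so whether these probes had signal above background is not known.

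Neuromedin S, the other ligand of these receptors, is encoded by NMS, which had a mean of -0.04 ± 0.24 and ratios between -0.41 and 0.23 (95% confidence interval -0.28 to 0.20; limma adjusted p = 0.982). The remaining members of that list belong to related peptide systems of the gut and brain. The ghrelin receptor gene GHSR had -0.08 ± 0.16, the ghrelin gene GHRL 0.03 ± 0.07, and the receptor gene GPR39 -0.01 ± 0.60. The neurotensin gene NTS had 0.10 ± 0.05, the neurotensin receptor gene NTSR2 0.07 ± 0.13, and the motilin gene MLN 0.06 ± 0.28. NTS was positive in 6 of 6 sets and the other 8 of these 9 genes had both signs, where 4.14% of all probes had 1 sign in all sets. None of the 9 passed (limma adjusted p of 0.884 or more).

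A secreted precursor is cleaved by signal peptidase, then by prohormone convertases, and its peptide is amidated. On the list of these enzymes 0 of 31 probes passed limma's test and 2 had an unadjusted p under 0.05, or 6.45%, near the 5.92% of all probes. These were probes of the signal peptidase genes SPCS2, with a ratio of -0.34 ± 0.14 (limma adjusted p = 0.575), and SPCS3, with -0.38 ± 0.38 (limma adjusted p = 0.797). The other signal peptidase probes lay to both sides of 0: SEC11C had 0.13 and 0.08, and SPCS1 had 0.12, -0.15 and -0.12. The convertase gene PCSK6 had 0.09 ± 0.12, and its other probes a median of -0.01.

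Both NMU receptors signal through G proteins. Of 74 probes of that signalling, 0 passed limma's test. An unadjusted p under 0.05 was found for 4, or 5.41%, near the 5.92% of all probes. RGS2, a brake on Gq signalling, had ratios of -0.20, -0.43 and -0.51 in male sets 1 to 3 and -0.75, -0.42 and -0.14 in female sets 1 to 3, with a mean of -0.41 ± 0.22 (limma adjusted p = 0.685). It was negative in 6 of 6 sets, as were 1.77% of all probes. It was lowest in female set 1 as NMU was, but the median of its other probes was -0.07. GNAI1, an inhibitory G protein subunit, had -0.26 ± 0.17, and PRKACA, the catalytic subunit of protein kinase A, had 0.68 ± 0.61.

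On the list of regulated secretion 0 of 29 probes passed limma's test. An unadjusted p under 0.05 was found for 1, or 3.45%, against 5.92% of all probes. This was CADPS2 of vesicle priming at -0.25 ± 0.27, whose other probes had 0.08 and 0.02. The vesicle fusion gene SNAP23 had -0.31 ± 0.41 and the granin gene SCG3 0.18 ± 0.19. Of 46 probes of other secreted peptides, 0 passed limma's test and 2 had an unadjusted p under 0.05, or 4.35%. ADM, the gene of the vasodilator adrenomedullin, had -0.70, 0.31 and -1.33 in male sets 1 to 3 and -1.08, -0.61 and -0.75 in female sets 1 to 3, with a mean of -0.69 ± 0.56 (limma adjusted p = 0.773). That was the largest ratio in size on the list and less than the mean of NMU. The dynorphin gene PDYN had -0.12 ± 0.09 on 1 probe and 0.09 and -0.01 on the others, and the neurokinin B gene TAC3 0.10 ± 0.03.

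**Figure D3:**
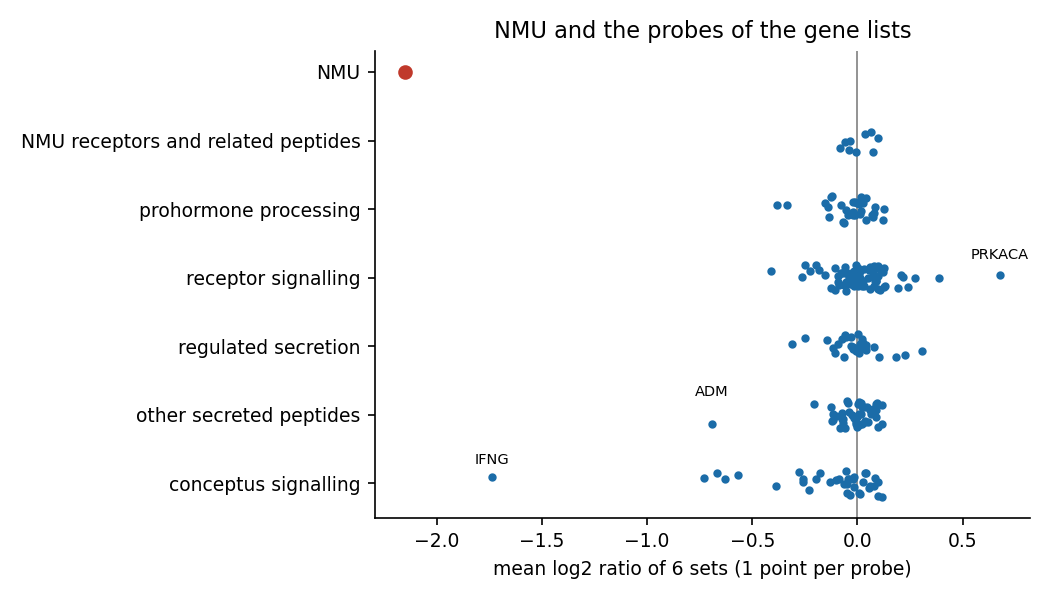
Mean log2 ratio of the 6 sets (horizontal axis) for NMU and for each probe of the 5 lists related to neuromedin U and of the list of conceptus signals (vertical axis, 1 point per probe). NMU stands at -2.15, and the probes of the 5 lists run from -0.69 for ADM to 0.68 for PRKACA.

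Pig conceptuses secrete cytokines and oestrogen as they prepare to elongate, and a list of such signals was set beside NMU. Of its 37 probes 0 passed limma's test, where 0.00457% of all probes did. An unadjusted p under 0.05 was found for 3, or 8.11%, against 5.92% of all probes. These were S100G, a calcium-binding protein gene (-0.39 ± 0.21), TGFB3 (-0.28 ± 0.26) and IFNG. The cytokine genes varied between sets in another way than NMU. IFNG had 0.66, -1.25 and -4.44 in male sets 1 to 3 and -1.74, -0.78 and -2.88 in female sets 1 to 3. IL1B had 3.95, -0.34 and -2.66 in male sets 1 to 3 and -1.53, 2.73 and -1.93 in female sets 1 to 3. Over the 6 sets Pearson's r with NMU was -0.10 for IFNG, 0.0012 for IL1B and -0.24 for IL1B2, as a description.

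Median ratios of cell type markers lay close to 0 in each set, while NMU ran between -4.65 and -0.82. The median ratio of 26 trophectoderm probes lay between -0.30 in female set 3 and 0.20 in female set 1. That of 15 epiblast probes lay between -0.03 and 0.06, and that of 22 hypoblast probes between -0.02 and 0.16. For early mesoderm it lay between -0.14 and 0.20 (9 probes), for uterine markers between -0.06 and 0.13 (9 probes), and for blood markers between -0.08 and 0.07 (11 probes). Pearson's r of these set medians with NMU was -0.56 for the trophectoderm, 0.25 for the epiblast, -0.42 for the hypoblast, -0.23 for the early mesoderm, 0.69 for the uterus and -0.46 for blood. Their part in the ratio of NMU was not tested.

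Single markers varied more than these medians, and to both sides. The trophectoderm factor gene GATA3 had 0.66 ± 0.78, and TEAD4 had 0.28 ± 0.21 on 1 probe and 0.32, 0.06 and -0.08 on its others. The trophectoderm keratin genes KRT18, KRT19 and KRT8 were added after their values were seen. KRT18 (1 of its 2 probes) and KRT19 had -0.44 ± 0.77 and -0.28 ± 1.33, with -1.98 and -2.55 in male set 3. KRT8 had a positive mean, with 0.14 ± 1.08 on 1 probe and 0.06 on the other. Of the 26 trophectoderm probes 10 were negative. The epiblast genes SOX2 and LIN28B had 0.16 ± 0.12 and -0.27 ± 0.41. Of the hypoblast, 8 of 22 probes were negative: APOC3 had 0.55 ± 0.44 and COL4A1 0.55 ± 0.60 on 1 probe and -0.08 on the other. The early mesoderm genes BMP2 and BMP4 had 0.39 ± 0.42 and 0.21 ± 0.29, and 2 of the 9 early mesoderm probes were negative. Of the uterine and blood lists, VIM had 0.15 ± 0.18 on 1 probe and 0.21 on the other. ESR1 had 0.10 ± 0.10 on 1 probe and -0.07 on the other, CD3E 0.12 ± 0.15 and LYZ 0.08 ± 0.07. Negative were 3 of the 9 uterine and 5 of the 11 blood probes. Over the 6 marker lists 0 of 92 probes passed limma's test, and 6 had an unadjusted p under 0.05, or 6.52%, near the 5.92% of all probes.

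In the RefSeq gene order of the pig assembly Sscrofa11.1, NMU lies on chromosome 8. The 5 nearest genes with a named probe on each side were PDCL2, CLOCK, NPY5R, NPY1R and NAF1, and EXOC1, CEP135, AASDH, PPAT and PAICS. NPY5R, NPY1R and NAF1 lay 31, 32 and 34 places from NMU in that order, and the others 2 to 11 places. The 14 probes of these 10 genes had mean ratios between -0.16 for PPAT and 0.34 for EXOC1, with a median of -0.03. Pearson's r of these probes with NMU lay between -0.84 and 0.94, as a description. None of the 14 passed limma's test (adjusted p of 0.904 or more), 0 had an unadjusted p under 0.05, and 0 had 1 sign in all sets. CLOCK, which encodes a core factor of the circadian clock, had -0.02 ± 0.18 and -0.13 ± 0.15 on its 2 probes. PPAT and PAICS, enzymes of purine synthesis, had -0.16 ± 0.53 and 0.09 ± 0.39. The position of the NMU probe within its gene is not known here.

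The way NMU varied between the sets was compared with that of the 2537 other named probes with an SD of at least 0.5 between sets. This is a description over 6 sets that share sows and slides, and no p is given. Few probes varied like NMU: 2 had a Pearson's r of 0.9 or more with it, or 0.0788%, while the median probe of this kind had 74 such partners. At least as many partners as for NMU were found for 99.2% of these probes, NMU included. At the other end 24 probes had an r of -0.9 or less, or 0.946%, where the median probe had 39. The median r with NMU was -0.17.

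**Figure D4:**
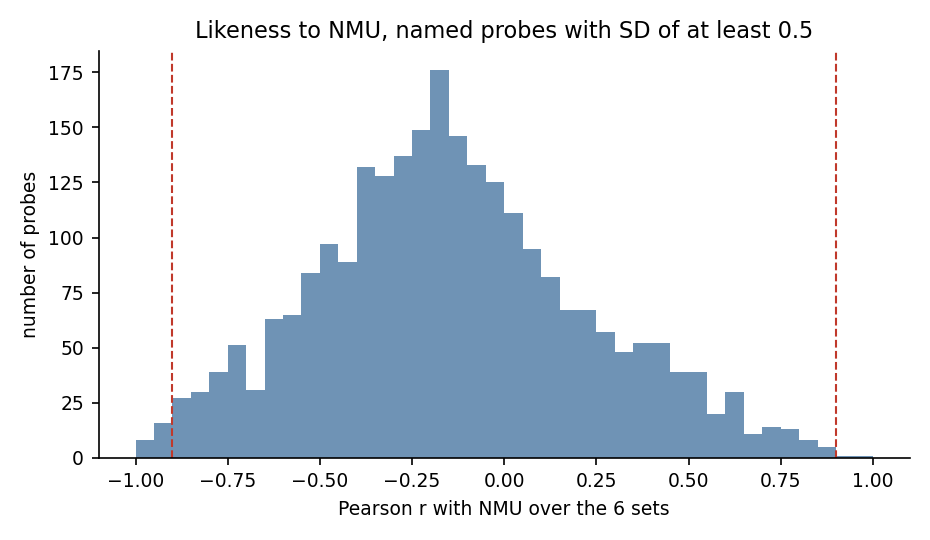
Number of named probes with an SD of at least 0.5 between sets (vertical axis) by their Pearson's r with NMU over the 6 sets (horizontal axis), with dashed lines at -0.9 and 0.9. Right of the upper line lie 2 of 2537 probes, and left of the lower line lie 24.

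Among named probes with an SD of at least 0.5, PHGDH, the first enzyme of serine synthesis, was the gene most like NMU. Its r was 0.97. The genes named below as most like or most opposite to NMU were ranked among the same probes. It had -0.58, 0.21 and -0.37 in male sets 1 to 3 and -1.50, -0.58 and -0.11 in female sets 1 to 3, lowest in female set 1 and highest in male set 2. Its mean was -0.49 ± 0.58, and its other probe had an r of 0.65. PSPH, the last enzyme of the same pathway, had an r of 0.88 and ratios of -0.93, -0.49 and -1.19 in male sets 1 to 3 and -1.55, -0.90 and -0.11 in female sets 1 to 3. Its other 3 probes had r between 0.15 and 0.82.

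The remaining genes among the 10 most like NMU had r between 0.83 and 0.92. These were LOC100157017, the phospholipase gene PLA2G7, the interferon-induced gene IFITM1, the prion protein gene PRNP, the GTPase gene RHOQ, the glucose transporter gene SLC5A1, LOC100519082 and the endosomal sorting gene VPS36. IFITM1 had a mean of -0.64 ± 0.56, and IFITM1, PSPH and LOC100519082 were negative in 6 of 6 sets. For VPS36 the other 4 probes had r between -0.89 and -0.85, for PLA2G7 the other probes had 0.25 and -0.34, and for SLC5A1 -0.24 and -0.14, so that these likenesses were not general to the gene.

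The likeness leaned on female set 1, in which NMU was lowest. Without that set the r of the 10 genes lay between 0.42 for RHOQ and 0.87 for PHGDH, and PHGDH was the 1 of them still among the 10 highest. Without the 2 sets farthest from the median of NMU, female sets 1 and 3, r over the remaining 4 sets was 0.92 for PHGDH, 0.70 for PSPH and 0.00042 for VPS36.

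The genes most opposite to NMU kept their r better. CALR, the gene of the calcium-binding chaperone calreticulin, had an r of -0.98 with NMU. It had -0.38, -1.37 and -0.64 in male sets 1 to 3 and 1.15, 0.23 and -1.44 in female sets 1 to 3, so it was highest where NMU was lowest. DAB2, the gene of an endocytic adaptor that was on the trophectoderm list, had -0.39, -0.996 and -0.76 in male sets 1 to 3 and 1.45, -0.25 and -1.13 in female sets 1 to 3, with an r of -0.98. The disulfide isomerase gene PDIA6 had -0.96, the chromatin gene YEATS4 -0.96 and UBXN4, of protein degradation at the endoplasmic reticulum, -0.95.

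Without female set 1 the r of these 5 genes lay between -0.98 and -0.82, and without female sets 1 and 3 between -0.996 and -0.71. A second probe of CALR and one of DAB2 each had an r of -0.97, while the third probe of CALR had -0.28, the other 2 of DAB2 had -0.58 and -0.10, and that of UBXN4 had -0.47. The mean ratios of the 5 genes were -0.41 for CALR, -0.34 for DAB2, -0.22 for YEATS4, -0.42 for PDIA6 and -0.27 for UBXN4, each smaller in size than its SD between sets. The mean of NMU was larger than its SD, but nothing is read from this contrast, because NMU was chosen by its ratios.

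**Figure D5:**
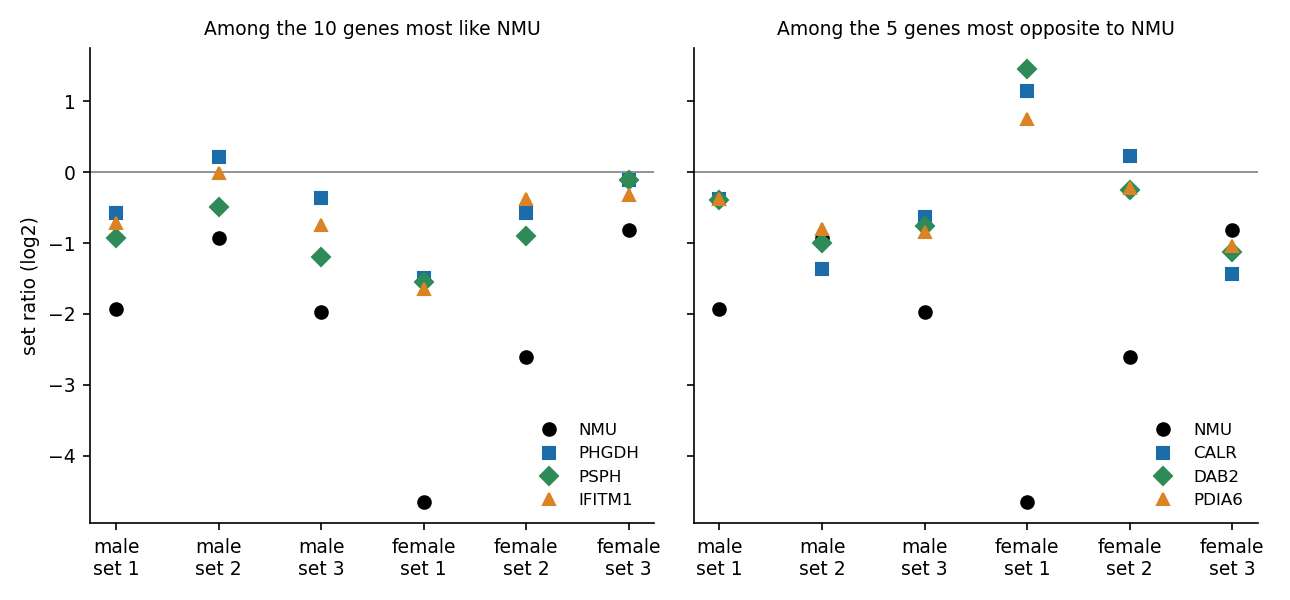
Set ratio (log2, vertical axis) in the 3 male and 3 female sets (horizontal axis) for NMU with PHGDH, PSPH and IFITM1 (left) and with CALR, DAB2 and PDIA6 (right). In female set 1, where NMU is at -4.65, PHGDH is at -1.50 and CALR at 1.15.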

How the data were processed

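RNA of 12 embryo pools was measured on 12 two-channel Agilent arrays, per the labels' protocols. The authors deposited a log ratio for each probe on each array, already computed from the 2 channels and read here as log2 from its range of -4.99 to 5.97. The log base is not stated, and neither normalization, background correction nor numerator is given in the sources used here.

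Of 43794 probes, 25 with a missing value were left out. The platform's table gave the symbols, of which 354 were updated from RefSeq, and 25659 probes had none. The swap arrays were turned because deviations of first and swap arrays from their means had a correlation of -0.728. The model was limma 3.58.1 on set ratios, in R 4.3.3 (1 mean per sex, mean of both sexes against 0, Benjamini-Hochberg over all probes, threshold 0.05). It was checked on simulated data whose sets were independent, so that shared sows or slides were not covered. The labels do not tie set numbers to sows, and p-values measure the spread between these sets.

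Named were NMU, the NMU receptors and related peptides, the 3 genes of smallest p on each other list (2 on marker lists), the 5 nearest genes on each side, the 10 genes most and 5 least like NMU, IL1B, IL1B2 and IFNG. The probe of smallest p, or for likeness of most extreme r among named probes with an SD of at least 0.5, stands for its gene. NMU and the lists were chosen with earlier results of these data known. Alternatives were sets left out, 1 array role, unturned swaps, centring, scaling, blocks, named probes alone, robust eBayes and other measures of likeness.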

Additional observations from a re-analysis of the deposited data

Results flagged for a closer look

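Of 62 named probes, 3 had 1 set standing apart from the other 5, no more than the 5% or so of such groups that chance gives. In female set 1 PLA2G7 had -2.28, DAB2 1.45 and MLN 0.61. PLA2G7 and DAB2 were named for their extreme r with NMU, which was itself lowest in that set, so that nothing is read from the set being the same. For NMU itself female set 1 was not far enough from the others to stand apart by this measure (ratio of gap to range 0.53).

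One probe of PDCL2, the nearest measured neighbour of NMU, was positive in the 3 male sets and negative in the 3 female sets. It averaged 0.08 in male embryos against -0.14 in female embryos, and this difference of 0.22 was not tested. The other probe of PDCL2 had -0.08 in male and 0.07 in female embryos.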

How the results depend on the processing

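The mean ratio of NMU stayed between -2.62 and -1.66 when 1 set was left out. It was -2.18 on first arrays alone, -2.13 on swap arrays alone and -2.15 with arrays centred or scaled. With the set number as a replicate block or the slide as a block it was -2.15. The balanced layout of the sets fixes that value, so neither of these refits could change it. Without turning the swap arrays the mean ratio of NMU was -0.026, with 0.055 in male and -0.11 in female embryos, since the opposite signs of the 2 arrays then cancel. The number of all probes called, 2, became 0 to 1 with 1 set left out, 0 with the slide or the replicate block, 1 among named probes alone, 155 on first arrays, 14 on swap arrays and 16335 without turning, and the cause was not tested. The 0 calls on the 5 lists became 1 on first arrays (CAMK2G, named after its value was seen) and 65 without turning. Of the 10 genes most like NMU, 1 to 7 remained with 1 set left out, 3 by Spearman's rank correlation, 0 with no minimum SD and 0 without turning. Same-numbered male and female sets deviated from their sex means with r of 0.05, 0.41 and 0.26, and differently numbered ones with r between -0.35 and 0.06. The labels do not tie set numbers to sows, so the main fit did not pair them. Whether same-numbered sets share sows was not tested.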

Other observations

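Further genes of the pathways of PHGDH and CALR were looked up after the likeness of these genes to NMU was seen, so that their values are a description. Of serine and glycine synthesis, PSAT1, the middle enzyme of the serine pathway, had r of -0.12 and 0.31 with NMU on its 2 probes. SHMT2, which makes glycine from serine in mitochondria, had -0.40 and -0.33. The 4 probes of these 2 genes thus had a median r of -0.23, against 0.73 for the 6 probes of PHGDH and PSPH, which led to the look-up. The asparagine synthetase gene ASNS had 0.61.

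Of endoplasmic reticulum chaperones and disulfide isomerases, all 11 probes of CALR and PDIA6, which led to the look-up, had a negative r with NMU. Of the 10 probes of 8 other such genes 6 were negative, or 60.0%, with a median r of -0.12. The share was 53.3% among all 18109 named probes and 68.0% among the 2537 of them with an SD of at least 0.5, so these other genes did not stand out. The chaperone gene HSPA5 had -0.10 and 0.23, and DNAJB11 had 0.69. None of these probes passed limma's test between FE and SE embryos over all probes.

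After NMU, IFNG and LOC100519082, the named genes of largest mean ratio in size were B2M, GSTM3 and FOS. B2M had -1.42 ± 0.71 and GSTM3 -1.295 ± 0.34 (SD, n = 6 sets), both negative in 6 of 6 sets. Their r with NMU was 0.70 and -0.02. FOS, an immediate early transcription factor gene, had -1.29 ± 1.31, was negative in 5 of 6 sets and had an r of 0.61 with NMU. Of 2835 unnamed probes with an SD of at least 0.5, 6 had an r of 0.9 or more with NMU, and 0 of these had a mean of -1 or less.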
